A study of Mus musculus with 12 samples.

Results

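The comparison described here is between retinas of 18-month-old and 3-month-old wild-type C57BL/6J mice, all collected at day 2 after intraocular pressure (IOP) was raised in 1 eye to a constant 30 mmHg for 1 h. It asks how an aged retina differs from a young one once both have been through the same mild pressure insult. There were 2 libraries of 18mo IOP retinas and 2 of 3mo IOP retinas, and the untreated contralateral eyes of each age gave the 3mo control and 18mo control groups, also with 2 libraries each. Genes were taken where the mean over the 4 IOP libraries was at least 0.5 FPKM (fragments per transcript length and sequencing depth), which kept 13910 of the 25124 listed genes, 12998 of them protein-coding. At this limit Cenpu (0.50 FPKM) was just inside and Eya1 (0.498 FPKM) just outside. Control eyes come from treated animals, so they are untreated but not naive, and the labels name neither the animals nor any date or batch. Age and any difference in the handling of the age groups therefore cannot be told apart. The study describes its RNA-seq libraries as biological replicates but the labels do not state separate animals, so p-values measure the spread between these libraries.

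In the eye, pressure is passed on to the retina and the optic nerve head, where the axons of the retinal ganglion cells leave the eye. Ganglion cells are the output neurons of the retina and are the cells lost in glaucoma, a disease for which age and raised IOP are risk factors. Muller glia span the whole retina, keep its ions, water and transmitters in balance, and with astrocytes and microglia turn reactive after injury. Immediate early genes are transcription factors and regulators that are switched on within minutes of a stimulus without new protein synthesis.

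The labels were checked first. Edn2, an endothelin made by injured photoreceptors, was at 24.2 and 19.0 FPKM in the 3mo IOP libraries against 0.877 and 1.18 FPKM in 3mo control, and at 59.8 and 163 FPKM in 18mo IOP against 10.1 and 11.7 FPKM in 18mo control. Gfap, the intermediate filament of reactive glia, was at 24.97 and 31.3 FPKM in young treated eyes and 31.4 and 87.5 FPKM in aged ones, and no control library exceeded 4.87 FPKM. All 8 libraries were rich in rod transcripts, as a retina is, with rod markers summing to between 12755 and 25816 FPKM. Depth lay between 41526167 and 59455056 mapped tags per library, and 3 reads, taken as the limit of measurement, correspond to 0.0252 to 0.0361 FPKM for a transcript of 2000 bases. The 18mo IOP libraries differed from each other: replicate 2 was higher in acute response genes such as Lcn2 (408 against 55.4 FPKM), and replicate 1 was higher in inner retinal neuron genes such as Calb2 (32.8 against 3.47 FPKM). In bulk retina, fewer cells of a type and less RNA per cell cannot be told apart.

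Of the 13910 genes, 1422 (10.2%) were higher and 1616 (11.6%) were lower in 18mo IOP than in 3mo IOP retinas, taking as called an adjusted p up to 0.05 in limma (Benjamini-Hochberg) together with at least a 2-fold difference. Transcript length ran through these calls. Among transcripts under 1000 bases 44.0% were lower and 4.47% higher, whereas among those of 4000 bases or more 1.94% were lower and 17.1% higher, and across genes the log2 fold change rose with length (Spearman correlation of 0.46 over 13910 genes, which share the same libraries). The median FPKM of transcripts under 1000 bases was 7.05 and 5.44 times that of transcripts of 4000 bases or more in the 3mo IOP libraries, but 1.74 and 1.88 times in the 18mo IOP libraries. The ratio was 2.95 and 9.06 in 3mo control and 1.58 and 1.51 in 18mo control, so the ages did not overlap in either kind of eye. The trend with length was therefore also removed from each library before the fit, after which 1036 genes (7.45%) were higher and 1039 (7.47%) lower. Called in the same direction in both fits were 766 higher genes (5.51%) and 746 lower genes (5.36%), and these are referred to as called in both fits. With the trend with GC content removed as well, 498 of the 766 and 474 of the 746 stayed called. The Spearman correlation of the log2 fold change with GC content was 0.27 as deposited and 0.42 with the length trend removed, over 13830 genes. The list counts that follow stand beside the shares of all genes given here. Without 3mo IOP replicate 1 the calls as deposited fell to 603 higher and 306 lower, and without 3mo IOP replicate 2 to 428 and 368.

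**Figure D1:**
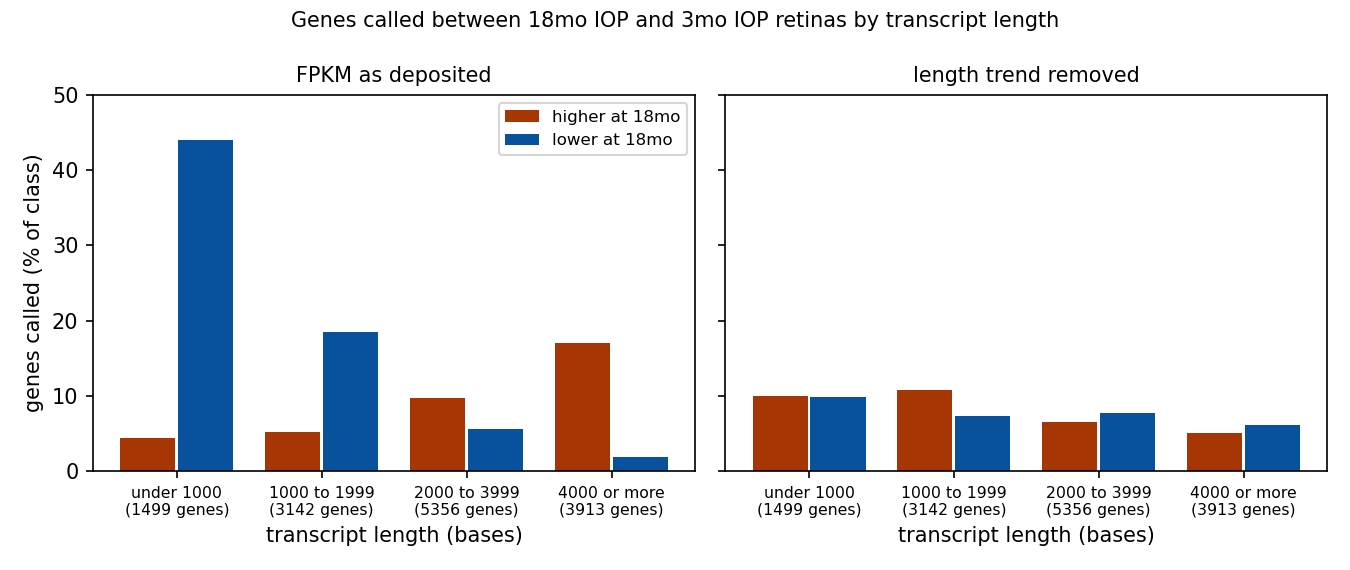
Bars give the percentage of tested genes in each class of transcript length (bases) that were called higher (brown) or lower (blue) in 18mo IOP than in 3mo IOP retinas, with FPKM as deposited (left) and with the length trend of each library removed (right). Lower calls fell from 44.0% to 9.87% of the shortest class, and higher calls from 17.1% to 5.03% of the longest.

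The largest rises in the aged IOP retina were in immediate early genes. Of the 37 listed, 36 were tested and 32 were higher in 18mo IOP, 30 of them in both fits, and none was lower. Without 3mo IOP replicate 2, 21 were called. Their median log2 fold change was 2.47 as deposited and 2.49 with the length trend removed, beside 0.09 and 0.02 over all tested genes. The AP-1 subunit Fos (NM_010234, mm10 chr12:85473890-85477274) was at 6.66 and 2.77 FPKM in the 3mo IOP libraries and at 231 and 547 FPKM in the 18mo IOP libraries, a log2 fold change of 6.20 ± 0.51 (SE, adjusted p = 0.00119). Its partner Fosb was at 1.45 and 1.08 FPKM against 37.7 and 101 FPKM (5.15 ± 0.51 on the log2 scale, adjusted p = 0.00197). The ages lay far apart for both genes, and within 18mo IOP replicate 2 was the higher. The zinc finger factor Egr1 (mm10 chr18:34861207-34864956) was at 4.10 and 2.45 FPKM in 3mo IOP and at 144 and 268 FPKM in 18mo IOP, a log2 difference of 5.74 ± 0.32 (adjusted p = 0.000963). Ccn1 (mm10 chr3:145646971-145649985), a matrix-associated target of the YAP pathway, was at 5.04 and 1.31 FPKM against 101 and 334 FPKM (5.87 ± 0.70, adjusted p = 0.00275). Zfp36 (mm10 chr7:28376784-28379228), whose protein destabilizes inflammatory mRNAs, was at 4.34 and 2.26 FPKM against 91.6 and 171 FPKM (5.10 ± 0.44, adjusted p = 0.00155). Klf4 (0.539 and 0.119 FPKM against 13.4 and 23.5 FPKM, 4.51 ± 0.32 on the log2 scale) and the neuronal activity gene Arc (0.362 and 0.126 FPKM against 7.74 and 19.2 FPKM, 4.12 ± 0.52) completed the immediate early genes among the 8 largest rises. Each of these genes was also higher in 18mo control than in 3mo control. Fos was at 207 and 104 FPKM in 18mo control against 3.07 and 2.66 FPKM in 3mo control, and 24 members of the list were called higher in control eyes, where 11.4% of all genes were.

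**Figure D2:**
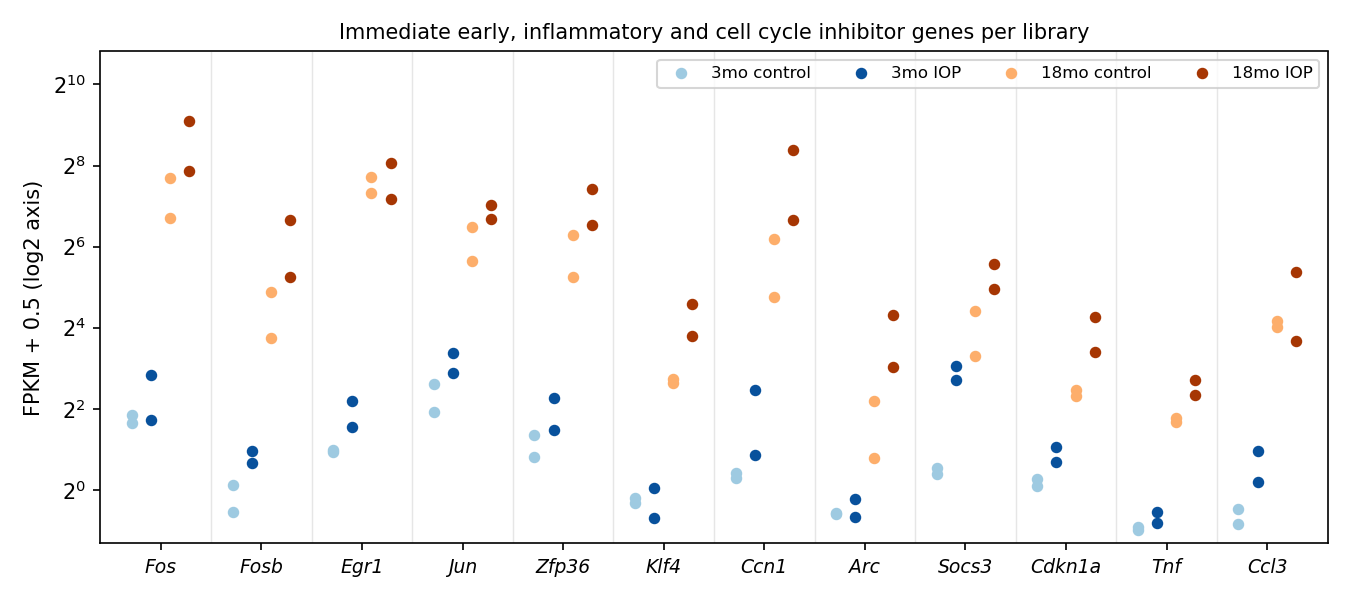
Each dot is 1 library, as FPKM + 0.5 on a log2 axis, for 12 genes in the control and IOP retinas of both ages. For every gene shown both 18mo IOP libraries lie above both 3mo IOP libraries, and for Fos the 18mo control libraries (207 and 104 FPKM) lie above both 3mo IOP libraries as well.

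Since these genes moved together, their promoters were read from RefSeq (GRCm38.p6), as the 250 bases before the start; 27 of the 36 tested genes had an entry. Both strands were searched for the CArG box, bound by serum response factor, for the cAMP response element (CRE) TGACGTCA and its core TGACG, and for the AP-1 site TGANTCA. A full CRE also holds the core. The core was found in 17 of the 27 promoters, and in 30.4% of the promoters of 10735 tested genes. The CArG box was found in 3 of 27 (1.41% of all), the full CRE in 3 (3.06%) and the AP-1 site in 1 (5.34%). Shown are the promoters of the 4 members with the largest rise, leaving out Egr1, with matches in capitals.
Fos, chr12:85473640-85473889, + strand: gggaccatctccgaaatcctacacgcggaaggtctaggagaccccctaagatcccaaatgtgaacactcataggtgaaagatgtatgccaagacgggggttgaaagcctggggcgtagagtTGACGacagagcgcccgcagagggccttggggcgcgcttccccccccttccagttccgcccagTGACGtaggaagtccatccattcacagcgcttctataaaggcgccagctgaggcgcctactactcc
Ccn1, chr3:145649986-145650235, - strand: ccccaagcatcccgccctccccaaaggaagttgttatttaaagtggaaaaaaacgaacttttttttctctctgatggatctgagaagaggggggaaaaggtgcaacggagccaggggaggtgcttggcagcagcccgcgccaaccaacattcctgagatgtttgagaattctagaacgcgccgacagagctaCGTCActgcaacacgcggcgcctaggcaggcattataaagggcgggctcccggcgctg
Fosb, chr7:19310046-19310295, - strand: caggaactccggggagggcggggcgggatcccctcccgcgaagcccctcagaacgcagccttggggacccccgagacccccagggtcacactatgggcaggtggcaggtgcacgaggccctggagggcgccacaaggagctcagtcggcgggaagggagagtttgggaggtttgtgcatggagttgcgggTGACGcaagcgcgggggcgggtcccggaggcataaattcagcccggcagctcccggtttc
Zfp36, chr7:28379229-28379478, - strand: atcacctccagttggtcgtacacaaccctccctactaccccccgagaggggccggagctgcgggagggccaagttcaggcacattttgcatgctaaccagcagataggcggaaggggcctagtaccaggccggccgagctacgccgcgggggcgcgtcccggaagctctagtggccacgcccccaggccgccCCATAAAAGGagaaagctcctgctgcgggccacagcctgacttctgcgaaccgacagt
The capitals are a CArG box in Zfp36 and the core of the CRE, on either strand, in Fos, Ccn1 and Fosb. In the latter 3 genes the matches nearest the start began 66, 58 and 60 bases before it.

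Genes of the TNF, NF-kB and IL-1 pathway, which drive inflammation, were higher for 15 of 34 tested members (12 in both fits) and lower for none, with a median log2 fold change of 0.97 beside 0.09 over all genes. The cytokine Tnf was at 0.069 and 0.180 FPKM in 3mo IOP and at 6.05 and 4.54 FPKM in 18mo IOP, a log2 difference of 3.21 ± 0.22 (adjusted p = 0.00101). Il1a, which encodes interleukin-1 alpha, was at 0.187 and 0.366 FPKM against 14.0 and 5.34 FPKM (3.58 ± 0.39, adjusted p = 0.00228). Nfkbiz, an inducible regulator of NF-kB, was at 3.37 and 3.54 FPKM against 17.0 and 38.03 FPKM (2.72 ± 0.35, adjusted p = 0.00313). The ages did not overlap for any of the 3, although both 18mo IOP libraries lay above both 3mo IOP libraries in 43.2% of all genes and below both in 34.5%. Of 21 chemokines tested, 8 were higher, all in both fits, and 2 were lower in the deposited values only, while the list's median was 0.01 as deposited, -0.09 under quantile normalization, 0.22 with the length trend removed and 0.46 without 18mo IOP replicate 2. The macrophage chemoattractants Ccl4 (0.731 and 0.660 FPKM against 25.2 and 12.9 FPKM) and Ccl3 (1.45 and 0.642 FPKM against 40.8 and 12.3 FPKM) rose by 3.96 ± 0.31 and 3.94 ± 0.50 on the log2 scale. The neutrophil attractant Cxcl2 was at 0.205 and 0.045 FPKM in 3mo IOP and at 4.87 and 14.6 FPKM in 18mo IOP (3.86 ± 0.48, adjusted p = 0.00298). In 18mo control eyes Ccl3 was at 17.4 and 15.7 FPKM, Ccl4 at 10.6 and 7.54 FPKM and Cxcl2 at 1.89 and 0.774 FPKM. Microglia, which produce several of these factors, had a summed marker level of 129 and 108 FPKM in 3mo IOP and of 325 and 147 FPKM in 18mo IOP over 16 markers, and 3 of 15 tested markers were higher, namely Cx3cr1, Csf1r and C1qa. Without 18mo IOP replicate 2 the count was 11, and without 3mo IOP replicate 1 or 2 it was 1 or 0. The median log2 fold change of 0.59 was 1.35 without 18mo IOP replicate 2 and -0.07 without replicate 1, so the direction of the list in IOP eyes rested on replicate 1. In control eyes 7 of the 15 markers were called higher at 18 months, with a median of 1.29. The part of microglial RNA in the rise of these cytokines was not tested.

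Reactive gliosis and acute phase genes were higher for 12 of 25 tested members (10 in both fits) and lower for 1, Gap43, which is also a ganglion cell gene. Cebpb, a transcription factor of the acute phase, was at 3.30 and 2.03 FPKM in 3mo IOP against 14.0 and 24.8 FPKM in 18mo IOP (2.63 ± 0.35 on the log2 scale, adjusted p = 0.00331). Socs3, the feedback inhibitor of cytokine receptors that signal through gp130, was at 7.77 and 6.09 FPKM against 30.5 and 47.1 FPKM (2.38 ± 0.36, adjusted p = 0.00511). Lif, a ligand of that receptor family released by injured retina, was at 0.607 and 0.375 FPKM against 1.77 and 12.8 FPKM, so its log2 difference of 2.48 ± 0.67 (adjusted p = 0.0219) leaned on replicate 2 of 18mo IOP and was 1.203 without it. It was not called with length and GC trends removed (1.99). Fgf2, a survival factor for photoreceptors, was at 7.07 and 8.28 FPKM against 13.3 and 51.5 FPKM (1.72 ± 0.50, adjusted p = 0.0282) and was 0.76, under 2-fold, without that library. The list's median log2 fold change was 1.26, and 0.40 without 18mo IOP replicate 2 against 1.84 without replicate 1. Several classical markers of gliosis did not pass the test between the ages. Gfap differed by 0.90 ± 0.40 (adjusted p = 0.101), Lcn2 by 1.41 ± 0.75 (adjusted p = 0.159), Serpina3n by 0.48 ± 0.56 (adjusted p = 0.510) and Timp1 by 0.12 ± 0.48 (adjusted p = 0.849) on the log2 scale. Serpina3n, a protease inhibitor of reactive astrocytes, overlapped between the ages, with 106 and 120 FPKM in 3mo IOP against 85.6 and 288 FPKM in 18mo IOP.

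Senescence genes, among them inhibitors of the cell cycle and secreted factors, were higher for 5 of 25 tested members, all in both fits, and lower for none, where 10.2% of all genes were higher as deposited and 5.51% in both fits. Control eyes also had 5 members higher at 18 months and 1 lower, with a median log2 fold change of 0.64 against 0.50 in IOP eyes. Cdkn1a, the p53 target that encodes the cell cycle inhibitor p21, was at 1.56 and 1.11 FPKM in 3mo IOP and at 10.1 and 18.7 FPKM in 18mo IOP, a log2 difference of 2.97 ± 0.29 (adjusted p = 0.00182), and in control eyes it was at 0.707 and 0.571 FPKM against 5.02 and 4.48 FPKM. Plaur, the urokinase receptor, was at 0.368 and 0.128 FPKM against 2.00 and 1.57 FPKM (1.62 ± 0.26, adjusted p = 0.00558). Gdf15, a stress-induced cytokine, was at 0.401 and 0.244 FPKM against 1.23 and 2.07 FPKM (1.36 ± 0.29, adjusted p = 0.0110), and in control eyes of both ages it stayed at or below 0.335 FPKM. Mmp14, a membrane-bound matrix protease, was at 4.56 and 2.88 FPKM against 12.99 and 13.8 FPKM (1.75 ± 0.25, adjusted p = 0.00408), and Cxcl1 at 0.781 and 0.942 FPKM against 4.38 and 20.6 FPKM (2.90 ± 0.57, adjusted p = 0.00899, and 1.85 without 18mo IOP replicate 2). For all of these the ages were separate, and Cdkn1a, Plaur and Mmp14 were also called higher at 18 months in control eyes. The list was in part drawn from genes the study names for these samples, so it is not independent evidence of a direction. Bcl3 (0.69 ± 0.63, adjusted p = 0.395), Fas (0.69 ± 0.35, adjusted p = 0.139) and Tgfb1 (0.89 ± 0.33, adjusted p = 0.0567) did not pass, although Fas was called with the length trend removed (1.09, adjusted p = 0.0265). Cdkn2a, which encodes p16, was too low to test, at 0 FPKM in both 3mo IOP libraries and at 0 and 0.080 FPKM in 18mo IOP.

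Complement components and regulators were higher for 7 of 19 tested members (6 in both fits), beside 10.2% of all genes (5.51% in both fits). C3, the central component, was at 0.975 and 1.43 FPKM in 3mo IOP and at 7.40 and 22.4 FPKM in 18mo IOP, a log2 difference of 3.00 ± 0.44 (adjusted p = 0.00462). C4b was at 6.94 and 5.47 FPKM against 23.6 and 32.3 FPKM (2.07 ± 0.23, adjusted p = 0.00237), and C1qa, Serping1, Clu and Itgam were the other members called in both fits. C2 went the other way, from 5.27 and 2.01 FPKM to 0.194 and 0.064 FPKM (-2.61 ± 0.38, adjusted p = 0.00446). In control eyes, where 11.4% of all genes were higher, 10 members of the list were called higher at 18 months and none lower, with a median log2 fold change of 1.04 against 0.74 in IOP eyes, and C4b was among them (2.66). C3 did not exceed 0.582 FPKM in control eyes of either age. The age difference of C3 was 2.46 log2 units larger in IOP than in control eyes (unadjusted p = 0.00393, adjusted p = 1.00 in limma), which does not pass.

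Some antigen presentation genes were higher. Over all genes 10.2% were higher as deposited and 5.51% in both fits, and 11.4% were higher as deposited in control eyes. Of 18 tested genes of MHC class I and peptide loading 6 were higher, all in both fits, and none was called lower. The median log2 fold change was 0.50, 0.96 without 18mo IOP replicate 1 and 0.23 without replicate 2, and in control eyes 6 were higher with a median of 0.78. H2-Q4 was at 4.97 and 4.77 FPKM in 3mo IOP and at 16.7 and 27.3 FPKM in 18mo IOP (2.03 ± 0.24 on the log2 scale, adjusted p = 0.00273), and the peptide transporter Tap2 at 2.84 and 2.61 FPKM against 9.93 and 11.4 FPKM (1.79 ± 0.18, adjusted p = 0.00197). H2-Q4 and H2-Q6 are near-identical to other class I genes, so their split of uniquely mapped reads is uncertain. Of 7 tested MHC class II genes 4 were higher in both fits. Cd74, the invariant chain, was at 3.20 and 1.504 FPKM against 11.9 and 9.55 FPKM (2.04 ± 0.32, adjusted p = 0.00556), H2-Ab1 at 2.55 and 1.32 FPKM against 5.96 and 5.17 FPKM (1.36 ± 0.35, adjusted p = 0.0190), and H2-Eb1 at 1.45 and 0.665 FPKM against 2.74 and 3.27 FPKM (1.21 ± 0.31, adjusted p = 0.0177). Both 18mo IOP libraries were above both 3mo IOP libraries for each of these. H2-Ab1 lost its call when either of the 18mo IOP libraries was left out, and the list's count was 2 without 18mo IOP replicate 1 and 1 without 3mo IOP replicate 2. In control eyes Cd74 was at 1.94 and 1.30 FPKM at 18 months against 0.655 and 1.00 FPKM at 3 months, and 1 member of the list was called higher there.

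Among interferon-stimulated genes few were higher. Of 46 tested, 1 was higher (Rsad2, in the deposited values only) and 9 were lower, 6 of them in both fits, beside 10.2% higher, 11.6% lower and 5.36% lower in both fits over all genes. The list's median log2 fold change was -0.01. It was -0.27 without 3mo IOP replicate 1 and 0.19 without replicate 2, so its sign depended on the library left out. Ifit3, an antiviral effector, was at 41.7 and 90.8 FPKM in 3mo IOP and at 17.0 and 22.2 FPKM in 18mo IOP (-1.64 ± 0.33, adjusted p = 0.00917). The membrane protein gene Ifitm1 was at 22.1 and 16.7 FPKM against 1.86 and 2.66 FPKM (-2.85 ± 0.43, adjusted p = 0.00511). Ifitm2, with a transcript of 623 bases, fell in the deposited values (-1.74 ± 0.32, adjusted p = 0.00766) but not past 2-fold with the length trend removed (-0.71). In 3mo control Ifit3 was at 13.7 and 13.6 FPKM, and in 18mo control at 9.14 and 9.80 FPKM. Over the list, control eyes had 7 genes higher and 1 lower at 18 months, with a median log2 fold change of 0.54.

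Markers of retinal ganglion cells were lower in the aged IOP retina. Of 18 tested, 16 were lower as deposited and 15 in both fits, with a median log2 fold change of -1.75 as deposited and -1.88 with the length trend removed. Their summed level was 642 and 735 FPKM in 3mo IOP against 135 and 56.7 FPKM in 18mo IOP. Rbpms, a pan-ganglion cell RNA-binding protein, was at 8.10 and 9.05 FPKM against 2.84 and 1.55 FPKM (-1.79 ± 0.37, adjusted p = 0.0101). Pou4f1, which encodes Brn3a, was at 2.28 and 3.48 FPKM against 1.25 and 0.177 FPKM (-1.61 ± 0.52, adjusted p = 0.0378), and Pou4f2 at 1.29 and 1.92 FPKM against 0.728 and 0.021 FPKM (-1.38 ± 0.46, adjusted p = 0.0437). Sncg, gamma-synuclein (mm10 chr14:34370274-34374669), was at 264 and 293 FPKM against 18.9 and 3.85 FPKM (-4.93 ± 0.76, adjusted p = 0.00541). The neurofilament Nefl was at 76.1 and 101 FPKM against 13.4 and 5.51 FPKM (-3.27 ± 0.47, adjusted p = 0.00424). For each gene replicate 2 was the lower of the 18mo IOP libraries, and the ages did not overlap in IOP eyes. Leaving out that replicate gave 9 lower markers, and leaving out 1 of the 3mo IOP libraries gave 4 or 3. Control eyes showed the same order, with summed levels of 465 and 890 FPKM in 3mo control and 56.9 and 119 FPKM in 18mo control, and 11 markers were called lower there. In the axon injury list 8 of 16 tested members were lower and 5 higher, and of the falls Gap43, Stmn2, Tubb3 and Nrn1 are also on the ganglion cell list. Nrn1, a neurite growth protein, went from 25.9 and 35.2 FPKM to 4.26 and 0.478 FPKM (-3.83 ± 0.67, adjusted p = 0.00686), while the injury-induced factors Jun (9.87 and 6.87 FPKM to 102 and 131 FPKM, 3.73 ± 0.34) and Atf3 (9.98 and 7.19 FPKM to 29.7 and 59.9 FPKM, 2.25 ± 0.34) rose.

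Other neurons gave smaller or mixed differences. Among amacrine and horizontal cell markers 4 of 16 tested were lower in both fits and none higher. Calb2, calretinin, was at 156 and 158 FPKM in 3mo IOP against 32.8 and 3.47 FPKM in 18mo IOP (-3.78 ± 0.93, adjusted p = 0.0163). The list's median log2 fold change was -1.06, but 0.14 without 18mo IOP replicate 2 and -2.10 without replicate 1, so its direction rested on replicate 2. Gad1, the GABA-synthesizing enzyme, shows this, with 23.3 and 22.2 FPKM in 3mo IOP against 27.3 and 2.23 FPKM in 18mo IOP. Bipolar cell markers went up for 7 of 16 tested (4 in both fits), led by the glutamate receptor of ON bipolar cells Grm6 (6.64 and 7.51 FPKM against 39.5 and 28.2 FPKM, 2.17 ± 0.26, adjusted p = 0.00290). Of 29 rod phototransduction genes 6 were lower and none higher, 3 in both fits, and the median of -0.61 turned to 0.03 under quantile normalization. The 3 rod genes with the largest fall lost size with the length trend removed. Gngt1 fell by 2.04 on the log2 scale as deposited and by 1.23 with the length trend removed (-0.37 and not called with the GC trend removed as well), Guca1a by 1.61 and 0.74, and Pde6g by 1.54 and 0.70. Of 17 cone genes 2 were lower as deposited (Guca1a and Gngt2), a share near the 11.6% of all genes, and none in both fits, and the median of -0.14 was 0.04 under quantile normalization, -0.57 without 18mo IOP replicate 1 and 0.07 without replicate 2. Among the cell markers, also near that share, 1 of 10 for rods was lower, the rod factor Nrl (580 and 509 FPKM against 244 and 265 FPKM, -1.09 ± 0.26, adjusted p = 0.0145), and 1 of 9 for cones, Gngt2 (453 and 410 FPKM against 208 and 122 FPKM, -1.43 ± 0.47, adjusted p = 0.0395), which was at -0.38 with the length trend removed. In the list of ribbon and conventional synapse genes 7 of 31 were higher and 4 lower, and in both fits 1 and 3. The falls called in both fits were the vesicular glutamate transporter of ganglion cells Slc17a6 (8.21 and 11.2 FPKM to 2.52 and 0.250 FPKM, -2.75 ± 0.65), the fusion clamp Cplx1 (21.2 and 29.2 FPKM to 6.36 and 2.36 FPKM, -2.52 ± 0.45) and the active zone protein Rims1 (5.31 and 7.81 FPKM to 3.37 and 0.955 FPKM, -1.55 ± 0.44). Without 18mo IOP replicate 2 Slc17a6 was at -1.74, Cplx1 at -1.89 and Rims1 at -0.84, under 2-fold. Of 29 glutamate, GABA and glycine receptor genes 3 were higher, a share near the 10.2% of all genes, and 2 were lower, or 9 with the length trend removed. The median log2 fold change of this list was -0.17 (-0.54 with the length trend removed), -0.69 without 18mo IOP replicate 1 and 0.43 without replicate 2. Grik3, a kainate receptor subunit, rose from 0.195 and 0.338 FPKM to 3.31 and 5.21 FPKM (2.61 ± 0.30, adjusted p = 0.00247), while the glycine receptor gene Glra3 fell by 1.76 on the log2 scale. Without 18mo IOP replicate 2 Glra3 was at -0.91, under 2-fold.

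Markers of Muller glia were higher in 18mo IOP. Of 15 tested, 11 were higher (9 in both fits) and none lower, the median log2 fold change was 1.52, and the summed level was 2325 and 1633 FPKM in 3mo IOP against 4862 and 5251 FPKM in 18mo IOP. Glul, glutamine synthetase, was at 293 and 245 FPKM against 901 and 714 FPKM (1.58 ± 0.27, adjusted p = 0.00679). The potassium channel Kcnj10 was at 4.19 and 5.68 FPKM against 26.0 and 25.7 FPKM (2.29 ± 0.22, adjusted p = 0.00180), and the glial transcription factor Sox9 at 2.51 and 2.27 FPKM against 13.4 and 26.7 FPKM (2.76 ± 0.37, adjusted p = 0.00339). Apoe, the lipid carrier of glia, was at 553 and 349 FPKM against 1460 and 1513 FPKM (1.76 ± 0.40, adjusted p = 0.0129). The ages did not overlap for these genes, and 7 markers were called without 3mo IOP replicate 2. Rlbp1, the retinaldehyde carrier, was at 121 and 89.0 FPKM against 153 and 125 FPKM (0.41 ± 0.29, adjusted p = 0.279) and did not pass. In 18mo control the sum was 3009 and 2545 FPKM, above 3mo control (1271 and 1878 FPKM), and 8 markers were called there. Of 6 tested markers of astrocytes and oligodendrocytes 3 were higher, led by the astrocyte enzyme Aldh1l1 (2.91 and 2.47 FPKM against 7.81 and 11.2 FPKM, 1.63 ± 0.21, adjusted p = 0.00326). Prss56, a serine protease gene of Muller glia linked to the growth of the eye, was among the 8 largest rises, from 1.31 and 0.998 FPKM to 45.8 and 21.6 FPKM (4.28 ± 0.47, adjusted p = 0.00225), with 7.79 and 2.77 FPKM in 18mo control.

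**Figure D3:**
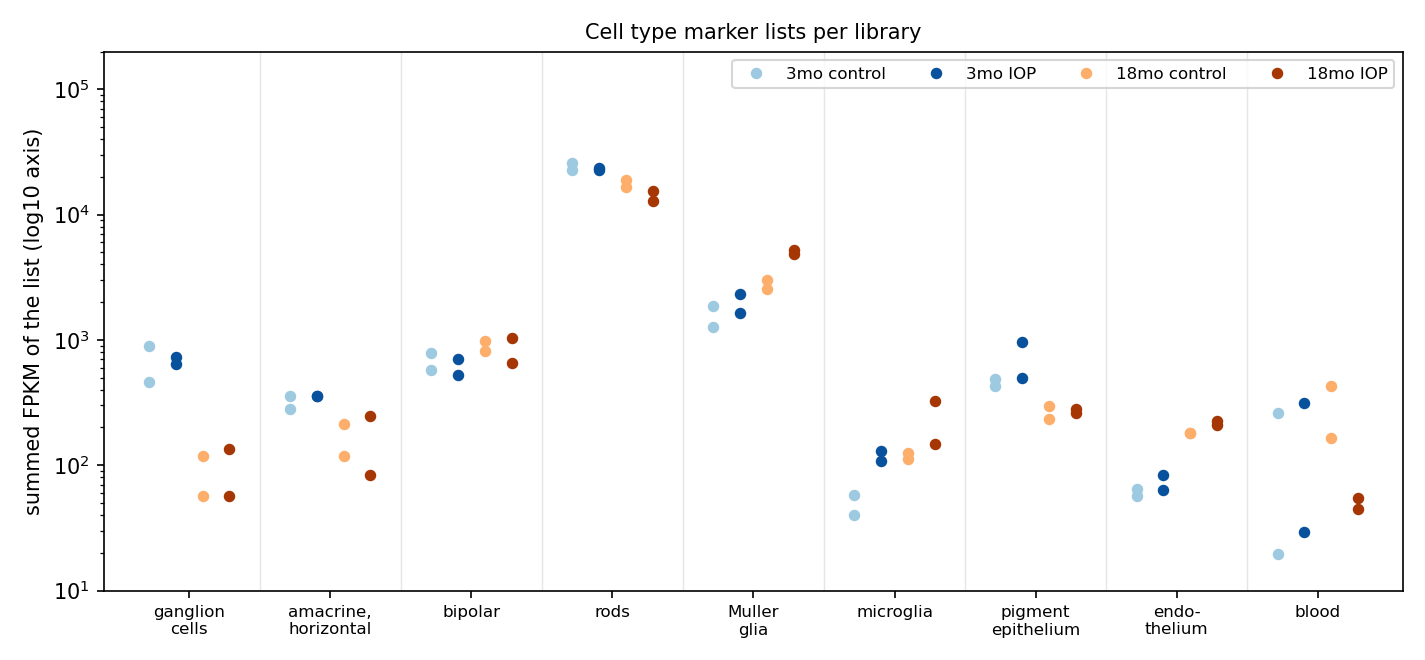
Each dot is the summed FPKM (log10 axis) of 1 list of cell type genes in 1 library of the 4 groups. Ganglion cell sums were 642 and 735 in 3mo IOP and 135 and 56.7 in 18mo IOP, Muller glia sums went the other way, and blood sums overlapped between the ages in IOP eyes.

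The largest falls were in pigment cell genes, which belong to the pigmented layers of the eye rather than to the neural retina. Of 16 tested markers of the retinal pigment epithelium, the cell layer behind the photoreceptors, 12 were lower in both fits and none was higher, with a median log2 fold change of -3.51, or -3.85 with 2 members placed at the bound set by 3 reads per library. Dct, a melanin synthesis enzyme (mm10 chr14:118012790-118052246), was at 195 and 99.4 FPKM in 3mo IOP and at 0.485 and 0.045 FPKM in 18mo IOP (-7.57 ± 0.81, adjusted p = 0.00217). Tyrp1 was at 73.8 and 32.2 FPKM against 0.287 and 0.074 FPKM (-6.20 ± 0.62, adjusted p = 0.00204), and the melanosome protein gene Pmel at 76.2 and 27.2 FPKM against 0.267 and 0.024 FPKM (-6.18 ± 0.73, adjusted p = 0.00273). Mlana was at 124 and 69.0 FPKM in 3mo IOP and had no more than 3 reads in either 18mo IOP library, which makes it at least 836-fold lower. Ttr, transthyretin, a carrier of thyroid hormone and retinol that the pigment epithelium makes, was at 168 and 54.2 FPKM against 2.25 and 0.540 FPKM (-5.83 ± 0.67, adjusted p = 0.00253), and the visual cycle isomerase Rpe65 at 20.5 and 5.59 FPKM against 0.160 and 0.018 FPKM (-4.27 ± 0.50, adjusted p = 0.00266). Replicate 1 was the higher of the 3mo IOP libraries for each of these genes. The visual cycle genes were as high in 3mo control (Rpe65 at 17.6 and 18.2 FPKM), whereas the melanin genes were at lower values there (Dct at 34.6 and 8.08 FPKM, Mlana at 11.4 and 4.57 FPKM). Summed pigment epithelium levels were 961 and 494 FPKM in 3mo IOP against 281 and 260 FPKM in 18mo IOP, of which Rlbp1 and Otx2, also retinal genes, made up most at 18 months. Gpnmb, which is expressed by pigment cells and by reactive microglia, followed the same order (128 and 50.8 FPKM against 6.30 and 7.12 FPKM, -3.50 ± 0.64, adjusted p = 0.00763). The remaining genes among the 8 largest falls were Cox8b, a muscle-type subunit of cytochrome c oxidase (31.9 and 24.4 FPKM against 0.507 and 0.094 FPKM, -5.20 ± 0.31), the calcium buffer Pvalb (41.2 and 40.9 FPKM against 0.861 and 0.566 FPKM, -5.11 ± 0.49) and Ptgds, a prostaglandin synthase (915 and 453 FPKM against 24.95 and 16.5 FPKM, -4.95 ± 0.36).

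Other tissues at the edge of a dissected retina were checked in the same way. Markers of ciliary body, iris and cornea summed to 24.7 and 16.9 FPKM in 3mo IOP and to 12.4 and 2.43 FPKM in 18mo IOP, and 1 of 8 tested (Krt14) was called lower, in the deposited values only. In 7 of the 8 both 18mo IOP libraries lay below both 3mo IOP libraries, as they did in 34.5% of all genes. The keratin gene Krt5 was at 2.51 and 0.350 FPKM in 3mo IOP and listed at 0 in 18mo IOP, and Krt12 was at 1.75 and 1.35 FPKM against 0.020 and 0 FPKM, but neither passed (adjusted p = 0.235 and 0.131). The median log2 fold change of these markers was -1.61, or -3.22 with 4 members at the bound set by 3 reads per library. Extraocular muscle markers summed to 26.4 and 7.17 FPKM against 3.92 and 4.74 FPKM, and 1 of 7 tested (Mylpf) was lower, in the deposited values only. Lens genes summed to 16.8 and 55.7 FPKM against 10.01 and 25.6 FPKM, and 1 of 10 tested (Bfsp2) was lower. These single calls are near the 11.6% of all genes called lower. Blood genes, mainly hemoglobins, summed to 29.3 and 313 FPKM in 3mo IOP against 54.3 and 44.3 FPKM in 18mo IOP, with no member called. Markers of infiltrating leukocytes summed to at most 7.66 FPKM in the IOP libraries, and of the 5 high enough to test Ptprc was higher and Plac8 lower, neither in both fits. The part of non-retinal tissue in the differences between the ages was not tested. Xist was between 51.7 and 158 FPKM in the 4 IOP libraries, and Ddx3y, Eif2s3y and Kdm5d were listed at 0 in all of them; Xist rose by 1.09 on the log2 scale as deposited and lost its call with the length trend removed.

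Vessel genes were described by cell type. Of 18 tested endothelial genes 14 were higher (11 in both fits) and none was lower, with a median log2 fold change of 1.54, and the 2 ages did not overlap for any of the 18. Over all genes 10.2% were higher and 11.6% lower as deposited, and 5.51% were higher in both fits. Both 18mo IOP libraries lay above both 3mo IOP libraries in 43.2% of all genes. Flt1, a VEGF receptor, was at 2.25 and 2.16 FPKM in 3mo IOP and at 22.3 and 18.5 FPKM in 18mo IOP (2.94 ± 0.20, adjusted p = 0.00101), the tight junction gene Cldn5 at 1.51 and 0.917 FPKM against 14.0 and 9.90 FPKM (2.86 ± 0.26, adjusted p = 0.00155), and Vwf at 0.128 and 0.104 FPKM against 2.67 and 3.59 FPKM (2.55 ± 0.28, adjusted p = 0.00225). In control eyes 15 endothelial genes were called higher, where 11.4% of all genes were. Of 14 smooth muscle and pericyte genes 5 were higher and 6 lower, whereas control eyes had 6 higher and none lower at 18 months, and the median log2 fold change was -0.55 in IOP eyes and 0.85 in control eyes. The IOP median was -0.19 without 3mo IOP replicate 1 and -0.91 without replicate 2. The pericyte receptor Pdgfrb was at 0.649 and 0.669 FPKM against 5.06 and 4.52 FPKM (2.19 ± 0.18, adjusted p = 0.00125), and Rgs5, Kcnj8, Abcc9 and Notch3 rose with it. The contractile genes Acta2 (46.0 and 16.8 FPKM against 3.84 and 3.54 FPKM, -2.76 ± 0.40, adjusted p = 0.00440) and Tagln (39.4 and 14.8 FPKM against 2.92 and 3.16 FPKM, -2.80 ± 0.39, adjusted p = 0.00385) were lower, as were Myh11, Cnn1, Myl9 and Tpm2.

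Extracellular matrix genes also split. Over all genes 10.2% were higher and 11.6% lower as deposited, and 5.51% and 5.36% in both fits. Of 31 tested collagens and laminins 14 were higher and 2 lower, and in both fits 7 and 2. The median transcript of the list was 5877 bases long. The median log2 fold change of 0.92 became 0.44 with the length trend removed and 0.09 with the GC trend removed as well. Col2a1 was at 2.08 and 2.19 FPKM in 3mo IOP against 13.3 and 12.9 FPKM in 18mo IOP (2.37 ± 0.25, adjusted p = 0.00206), Col27a1 at 0.997 and 1.22 FPKM against 9.18 and 5.87 FPKM (2.29 ± 0.32, adjusted p = 0.00390), and Lamb2, a basement membrane laminin, at 1.49 and 0.966 FPKM against 6.74 and 6.13 FPKM (2.02 ± 0.21, adjusted p = 0.00206). Among 26 other matrix proteins 6 were higher and 6 lower (4 and 6 in both fits), with a median of 0.28 as deposited, -0.24 with the length trend removed, -0.05 without 3mo IOP replicate 2 and -0.09 without 18mo IOP replicate 1, and the fibroblast matrix genes Fbln1 (12.9 and 10.5 FPKM against 1.40 and 0.124 FPKM, -3.48 ± 0.52) and Lum (5.65 and 2.16 FPKM against 0.070 and 0.098 FPKM, -2.79 ± 0.37) led the falls with Optc (-2.63 ± 0.60). Matrix proteases and their inhibitors were higher for 9 of 20 (5 in both fits). Adamts1, an aggrecanase, was at 5.72 and 4.21 FPKM in 3mo IOP against 29.2 and 69.2 FPKM in 18mo IOP (3.07 ± 0.37, adjusted p = 0.00286), and Plat, tissue plasminogen activator, at 5.46 and 3.09 FPKM against 17.2 and 24.1 FPKM (2.17 ± 0.27, adjusted p = 0.00298).

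Genes of protein synthesis and respiration were lower, and their fold changes were smaller with the length trend removed. Of 84 cytosolic ribosomal protein genes 67 were lower as deposited and 29 in both fits, of 77 mitochondrial ribosomal proteins 42 and 11, of 39 complex I subunits 32 and 12, of 43 subunits of complexes II to V 33 and 16, and of 34 proteasome subunits 23 and 4. Of the members called in both fits 25, 6, 8, 10 and 2 stayed called with the GC trend removed as well. No member of these 5 lists was called higher as deposited. The median log2 fold changes of -1.69, -1.05, -1.72, -1.67 and -1.21 became -0.81, -0.56, -0.85, -0.75 and -0.74 with the length trend removed. The median transcript of the cytosolic ribosomal list was 716.5 bases long. Rps16, of the small ribosomal subunit, was at 53.6 and 44.999 FPKM in 3mo IOP and at 6.08 and 8.82 FPKM in 18mo IOP (-2.66 ± 0.41 as deposited, adjusted p = 0.00543, and -1.63 with the length trend removed). Ndufb4 of complex I was at 35.6 and 30.4 FPKM against 6.29 and 5.02 FPKM (-2.45 ± 0.52, adjusted p = 0.0110), Uqcr10 of complex III at 351 and 265 FPKM against 57.7 and 62.5 FPKM (-2.33 ± 0.48, adjusted p = 0.00973), and Psma5 of the proteasome core at 39.5 and 34.2 FPKM against 7.99 and 10.5 FPKM (-1.94 ± 0.40, adjusted p = 0.00990). Each of the 4 genes was called in both fits and separated the ages. Among the others named in these lists, Rpl39, Rplp1, Mrpl20, Mrps36, Mrps33, Ndufb2, Ndufa2, Atp5md, Cox7b and Psma7 were likewise called in both fits, with log2 fold changes from -2.54 (Rpl39) to -1.84 (Psma7), and Psmb3 (-1.80) only as deposited. With the GC trend removed as well Mrps33 (-0.80), Atp5md (-0.93) and Cox7b (-0.91) were not called. Without 3mo IOP replicate 1 or replicate 2 the cytosolic ribosomal calls fell to 5 and 11, and the median log2 fold change was -1.56 and -1.86.

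The counts of the remaining lists stand beside 10.2% higher and 11.6% lower over all genes. Among 20 heat shock chaperones 5 were higher and 2 lower. Bag3 (2.26 and 1.80 FPKM against 5.45 and 11.7 FPKM, 1.76 ± 0.33, adjusted p = 0.00815) and Hspb1 (2.25 and 1.497 FPKM against 4.87 and 10.3 FPKM, 1.70 ± 0.34, adjusted p = 0.00939) rose, and the small heat shock gene Hspb8 fell from 10.01 and 7.88 FPKM to 1.21 and 2.04 FPKM (-2.17 ± 0.24, adjusted p = 0.00225). Of 14 genes of the integrated stress response 2 were higher and 2 lower (Asns, asparagine synthetase, fell by 1.23 on the log2 scale), and Ppp1r15a, which restores translation by dephosphorylating eIF2, was at 5.75 and 4.39 FPKM against 27.5 and 57.2 FPKM (2.86 ± 0.34, adjusted p = 0.00275). Of 17 antioxidant and metallothionein genes 1 was higher (Txnrd1, in the deposited values only) and 3 were lower, of which Gpx4, the lipid peroxide reductase, was called in both fits (323 and 252 FPKM against 62.7 and 79.6 FPKM, -2.01 ± 0.52), whereas Gpx1 (-1.42) and Prdx1 (-1.38) were called only as deposited. Of 27 hypoxia and glycolysis genes 3 were higher and 3 lower, close to those shares in both directions. Among them Adm, adrenomedullin, was at 0.371 and 0.138 FPKM against 0.761 and 6.35 FPKM (1.98 ± 0.65, adjusted p = 0.0406). Without 18mo IOP replicate 2 the Adm difference was 0.76 and was not called. Epas1, a hypoxia-inducible factor, rose by 1.502 and the mitophagy gene Bnip3 fell by 1.59 on the log2 scale, and with length and GC trends removed neither was called (0.85 and -0.87).

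Among 28 cholesterol genes 3 were higher and 6 lower, with the synthesis enzyme Msmo1 at 46.4 and 47.8 FPKM against 13.9 and 11.7 FPKM (-1.85 ± 0.24, adjusted p = 0.00330) and Fdps fell by 1.76 on the log2 scale. Of 22 circadian clock genes 5 were higher and none lower, led by Nr1d1, which encodes REV-ERB alpha (29.3 and 26.3 FPKM against 72.8 and 74.9 FPKM, 1.40 ± 0.22, adjusted p = 0.00558), and 3 were called in both fits, among them Bhlhe40 (1.23) but not Per1 (1.23). With the GC trend removed as well 1 of the 3 was called and Nr1d1 was at 0.93. Of 25 DNA methylation and chromatin enzymes 6 were higher as deposited and 1, the histone methyltransferase Kmt2a with a transcript of 16425 bases, in both fits (9.36 and 11.2 FPKM against 24.3 and 39.1 FPKM, 1.54 ± 0.34, adjusted p = 0.0118). With the GC trend removed as well Kmt2a was at 0.82 and not called. Kdm6b (1.45) was among those called only as deposited. Of 21 homeodomain and photoreceptor factors 3 were higher and 2 lower, including Lhx4 (1.46 on the log2 scale) and Isl2. Isl2, a ganglion cell factor, was at 1.42 and 1.95 FPKM against 0.741 and 0.237 FPKM (-1.18 ± 0.28, adjusted p = 0.0149). Without replicate 2 of the aged IOP group Isl2 was at -0.81, under 2-fold. Of 36 DNA repair genes 1 was lower, Apex1, and none in both fits. Of 14 long noncoding RNAs 2 were higher (BB283400, by 1.14, and Xist) and 2 lower, and the falls of Snhg1 and Gas5, which are short, were at -0.32 and -0.34 on the log2 scale with the length trend removed. Among 21 genes of disease-associated microglia and lysosomes 3 were higher and 2 lower, or 8 and 2 with the length trend removed. Both falls, Gpnmb and Lpl (-1.61), were called in both fits, while the median of -0.03 was 0.46 with the length trend removed. Lpl was at 5.06 and 5.25 FPKM in young IOP retinas against 2.40 and 0.683 FPKM in aged ones. Without replicate 2 of the aged IOP group the Lpl difference was -0.96, under 2-fold.

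**Figure D4:**
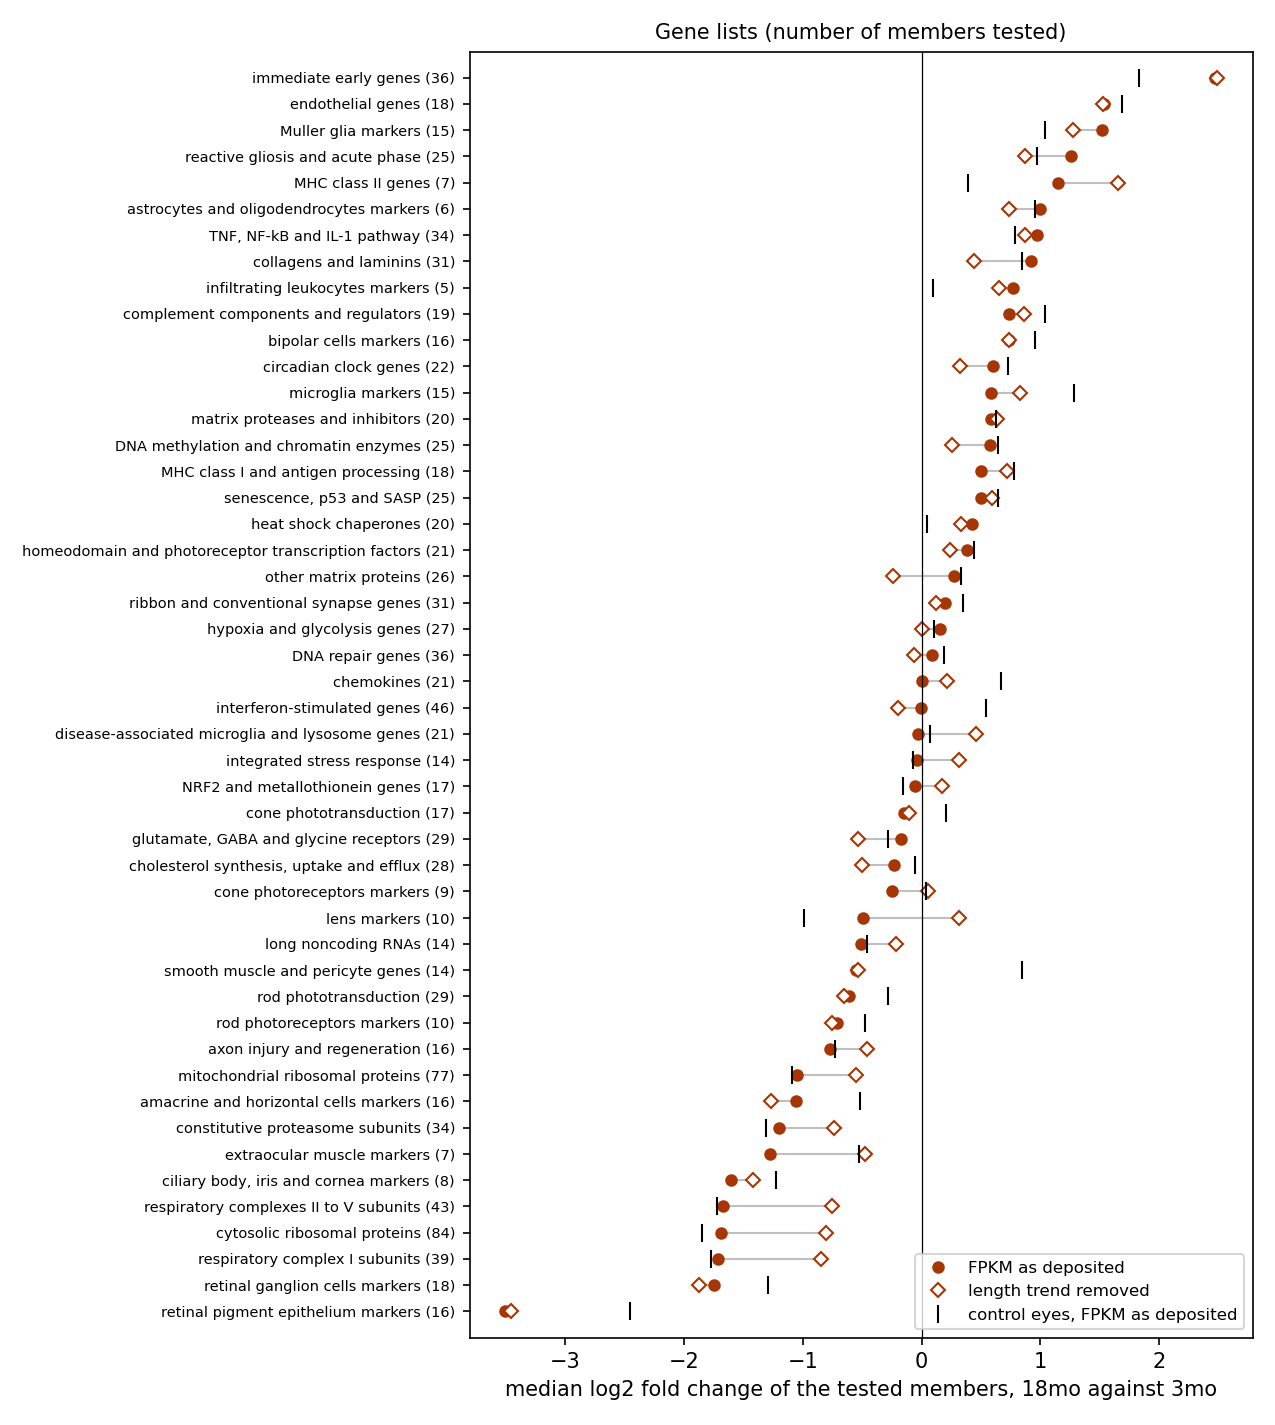
Median log2 fold change of the tested members of each gene list in 18mo IOP against 3mo IOP retinas, with FPKM as deposited (filled) and with the length trend removed (open), and in 18mo control against 3mo control (black ticks). The immediate early genes stand at 2.47 and 2.49, and the cytosolic ribosomal proteins move from -1.69 to -0.81.

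Whether an age difference was particular to the IOP eye was asked with the interaction, the age difference in IOP eyes minus that in control eyes. In limma no gene passed at an adjusted p of 0.05 (0%), and 237 genes (1.70%) had an unadjusted p under 0.05, with a smallest adjusted p of 1.00. The median SE of an interaction was 0.32 on the log2 scale, and with 2 libraries per group large interactions did not pass either, such as those of Tagln and Acta2. Of the genes called in both fits between the IOP groups, 495 of 766 higher and 588 of 746 lower were also called in the same direction in both fits between the control groups (5.36% higher and 6.44% lower of all genes there, 746 and 896), and none in the opposite one. IOP and control eyes of an age may come from the same animals. The lists with the largest median interactions, blood aside, were MHC class II genes (1.37, with 4 of 7 members at an unadjusted p under 0.05), smooth muscle and pericyte genes (-1.01, 6 of 14) and interferon-stimulated genes (-0.70, 13 of 46). The smallest p-values among genes with a negative interaction and no overlap of the ages in IOP eyes belonged to Grem1, an inhibitor of BMP signals (6.02 and 3.93 FPKM in 3mo IOP, 0.423 and 0.319 FPKM in 18mo IOP and no more than 0.558 FPKM in control eyes, an interaction of -2.83 ± 0.40), and to Tagln (-3.18 ± 0.55) and Acta2 (-3.21 ± 0.56), which were between 1.67 and 3.37 FPKM in all control libraries. In these 3 genes the 3mo IOP libraries stood above all others. With 3mo IOP replicate 2 left out, Tagln and Acta2 passed (adjusted p = 0.0457). Among genes with a positive interaction and no overlap of the ages in IOP eyes, the smallest p-values belonged to H2-Aa (2.71 and 1.46 FPKM in 3mo IOP, 5.76 and 4.20 FPKM in 18mo IOP, 1.25 and 1.36 FPKM in 3mo control, 0.692 and 0.400 FPKM in 18mo control, an interaction of 1.92 ± 0.41) and to the small RNA genes AF357425 and Snord57, whose transcripts are 68 and 62 bases long. AF357425 had 2 and 3 reads in 3mo IOP and 1 and 1 in 18mo IOP, none above the 3 reads taken as the limit of measurement. Snord57 had 2 and 0 reads in 3mo IOP against 9 and 11 in 18mo IOP.

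**Figure D5:**
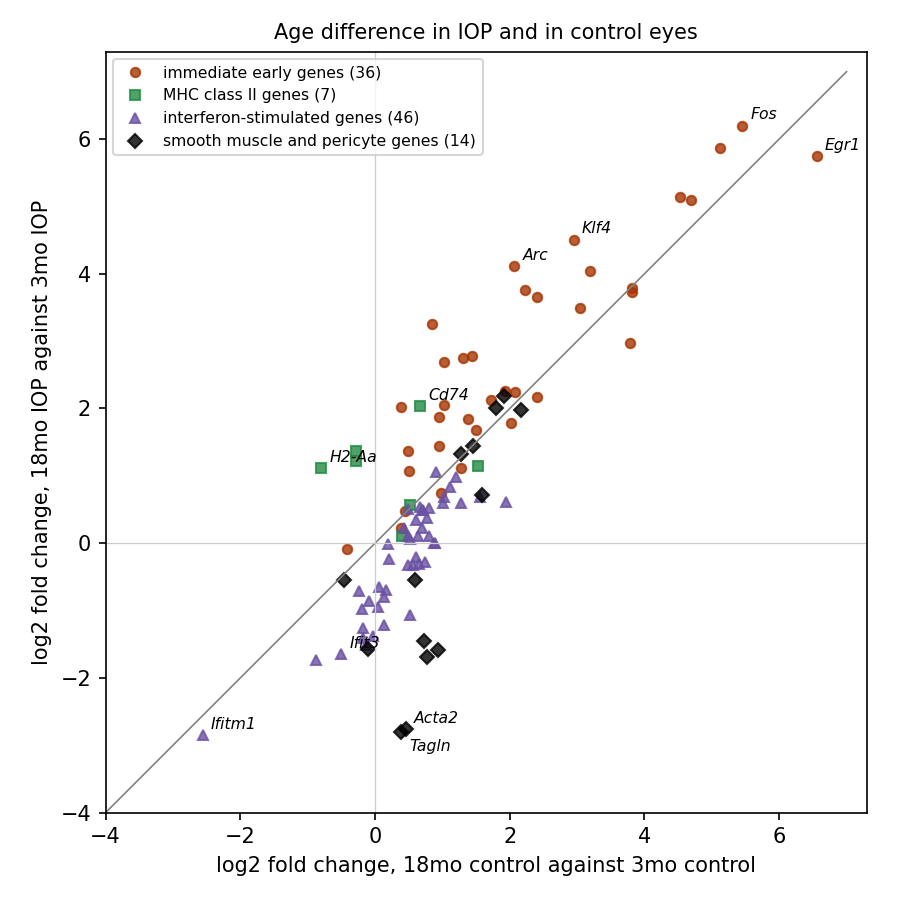
Each point is 1 gene of 4 lists, with the log2 fold change between the ages in control eyes on the x axis and in IOP eyes on the y axis, and a line where both are equal. Fos lies far up just above the line and Egr1 below it, Acta2 and Tagln lie below the line at -2.76 and -2.80 in IOP eyes, and H2-Aa lies above the line at 1.12.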

How the data were processed

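RNA of mouse retinas was sequenced in 8 libraries of 4 groups, which follow the labels. The authors aligned reads to mm10 with STAR 2.7.8a, counted exonic tags with HOMER and deposited FPKM values per RefSeq gene; their DESeq2 comparisons were not used. A further table on repeated IOP elevation was not used here. From the FPKM steps, 100% of the values checked gave whole reads within 0.2, and these gave the depth, 41526167 to 59455056 tags per library; read limits cover counting error only. Differences were tested with limma 3.58.1 in R 4.3.3 on log2(FPKM + 0.5) (lmFit, eBayes with trend, two-sided), so folds of low genes are understated, with Benjamini-Hochberg adjustment over 13910 genes. The main fit held the 4 groups without a replicate block. Calls needed an adjusted p of at most 0.05 and a 2-fold change. Length trends were removed per library by a natural spline with 5 df. The scripts were tested on simulated data. Members, gene lists and promoter motifs were chosen with earlier results of these data known. Genes were named by rule: the 8 largest rises and falls called in both fits without overlap, leaving out unnamed gene models and small RNAs, the 3 largest called members of each list, stress genes the study names, and the 3 smallest interaction p-values in each direction among genes without overlap of the ages in IOP eyes. Further list members and the first members of each marker list were chosen after their values were seen. Alternatives were the pseudocount, the filter, the scaling, length and GC trends, the replicate block, voom on recovered reads and each library left out. Some genes that the rule names are not reported here.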

Additional observations from a re-analysis of the deposited data

Results flagged for a closer look

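In 3 of the named genes both 18-month libraries differed from both 3-month libraries one way in IOP eyes and the opposite way in control eyes. The age difference in IOP eyes minus that in control eyes was -3.18 on the log2 scale for Tagln (unadjusted p = 0.000371), -3.21 for Acta2 (unadjusted p = 0.000412) and 1.92 for H2-Aa (unadjusted p = 0.00146). None passed in limma (adjusted p = 1.00). Over all tested genes, 32 (0.230%) were higher in IOP and lower in control eyes without overlap, and 75 (0.539%) the reverse.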

How the results depend on the processing

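The counts of 1422 higher and 1616 lower genes stayed within 1.5 times under another pseudocount, a stricter filter, other scalings, voom on recovered reads and the replicate block. The exceptions were as follows. Lower genes were 1039 with the length trend removed and 1000 with the replicate block as well. With length and GC trends removed 799 were higher and 703 lower. With no filter 741 were higher and 461 lower, and 50 interactions passed. At the adjusted p alone 3200 were higher and 2728 lower. Leaving out 1 library gave 428 to 1426 higher, 306 to 1629 lower and 0 to 2 interactions, the lowest counts without a 3mo IOP library; the lone sample of a group is then assumed to vary like the others. The cause was not tested. Of 117 called named genes, 59 were called under every alternative. Snhg1 (0.23) and Gas5 (0.20) turned positive with length and GC trends removed, and Bcl3 was -0.46 without 18mo IOP replicate 2 (-0.46 to 1.84 over libraries left out). The labels do not say that same-numbered libraries share an animal, so the numbers were not used as pairs, and which eyes share an animal is not known. Deviations from the group mean correlated at -0.27 between same-numbered 3mo control and 3mo IOP libraries, and at -0.53 between the 18mo ones. Between same-numbered IOP libraries of the 2 ages the correlation was -0.14. With 2 libraries per group these signs depend on the numbering, so they cannot identify pairs. The replicate block gave 1411 higher and 1574 lower genes, and of the named genes Gngt2 and Xist lost their calls. Crossed pairings, chosen after seeing the data, gave 1394 higher and 1543 lower, and 1421 higher and 1637 lower. With 2 libraries per group, the median SE of an age difference was 0.23 on the log2 scale.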
